A study of Mus musculus with 20 samples.

Results

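The 10 genes described here encode carriers that move amino acids across the plasma membrane: Slc3a2, Slc7a5, Slc7a6, Slc7a11, Slc7a1, Slc1a5, Slc38a1, Slc38a2, Slc38a5 and Slc43a1. They were chosen by name and matched to Ensembl identifiers of the count table, which holds 37620 genes. All 10 were found, and all 10 were among the 17824 genes with enough counts to be tested. RNA was measured in mouse B220+ cells, sorted with magnetic beads against the B220 form of CD45 that B cells carry. There were 3 groups, all of the C57BL/6 background: normal spleen (4 samples), VavPBcl2 lymphomas with an empty vector (8 samples) and VavPBcl2 lymphomas with Myc (8 samples). In VavPBcl2 mice the Vav promoter, which is active across blood cells, drives the anti-apoptotic gene Bcl2. Both lymphoma groups carried this transgene, and the normal spleens are not labelled as carrying it. The labels give no ages and do not say whether the samples of a group came from separate animals. The p-values therefore measure the spread between these samples, which may be technical.

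Cells take up essential amino acids through carriers of several families. The heavy chain Slc3a2 (CD98) forms disulfide-linked pairs with light chains that do the transport, among them Slc7a5 (LAT1), Slc7a6 (y+LAT2) and Slc7a11 (xCT). Leucine taken up through LAT1 is one signal that activates mTORC1, the kinase complex that couples nutrient supply to cell growth. Lymphocytes raise several of these carriers when they are activated and begin to divide, and Myc is a known regulator of some of them.

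Each sample held 28.73 to 56.3 M gene counts (M for 1e6), which were 37.08 to 56.96% of its listed reads. The Myc transcript was measured at 179, 218, 229 and 343 CPM (counts per 1e6 gene counts, after scaling for library composition) in the 4 normal samples. It ranged from 48.3 to 226 CPM in vector lymphomas (median 101) and from 313 to 1650 CPM in Myc lymphomas (median 909). All 8 Myc lymphomas lay above all 8 vector lymphomas in this transcript. The labels give each sample an instrument and a run number on it. Runs fell into an earlier and a later set on each of the 4 instruments, numbered separately per instrument, with 13 samples in the earlier and 7 in the later sets. All 8 Myc lymphomas, 3 normal samples and vector lymphomas 7 and 8 came from the earlier runs. Vector lymphomas 1 to 6 and normal sample 1 came from the later runs, so run and group overlap in each comparison with vector lymphomas. In the sample titles, vector lymphomas 7 and 8 carried the prefix E205, and vector lymphomas 1 to 6 the prefix AO55 or AO56. Among vector lymphomas, run and title prefix therefore cannot be told apart. Myc lymphoma 5 stood apart: its 12 erythroid markers summed to 77600 CPM, above all other samples, and its Myc transcript was the lowest of its group. Markers of B cells were present in every group, at 6430 to 7710 summed CPM in normal samples, 5900 to 10200 in vector lymphomas and 1220 to 6520 in Myc lymphomas. Of these 10 markers, 9 fell in Myc against vector lymphomas, where 21.9% of all genes fell.

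The promoters of 7 of the 10 carriers matched the RefSeq promoter table (build GRCm38.p6, 9 start sites), and the 250 bases before each start were searched on both strands. Slc7a5, Slc1a5 and Slc38a1 had no entry there, so their promoters were not searched for any motif. The sequence CACGTG, the E-box to which Myc and its partner Max are known to bind, was found before Slc38a5 and Slc43a1, and in 6.02% of all 32851 promoters searched. Both genes were called higher in Myc than in vector lymphomas, and for that reason their E-boxes are shown with the bases around them, the E-box in capitals. No E-box was found before Slc7a6, which was also called higher there, or before Slc3a2 and Slc38a2, which were called lower. The Slc38a5 stretch lies at chrX:8271339-8271368 on the plus strand, in an intron of the GENCODE gene model. The Slc43a1 stretch lies at chr2:84840247-84840276 on the plus strand, in an exon of a GENCODE transcript.
Slc38a5: gcagacaggtgaCACGTGtccctgttaaga
Slc43a1: agggtctccctcCACGTGgcagccgtggga
The core TGATGNAA of the amino acid response element, to which Atf4 is known to bind, was present in 3.45% of all promoters searched. Among the 7 carriers it was found before Slc7a11, in 2 copies on opposite strands. The stretch that holds them lies at chr3:50443633-50443699 on the minus strand, upstream of the gene model, and both cores are in capitals. It was chosen for printing after the search, and Slc7a11 was not called in any comparison.
Slc7a11: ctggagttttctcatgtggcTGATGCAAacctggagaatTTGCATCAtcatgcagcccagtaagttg
The core TGACNNNGC of the antioxidant response element was found before Slc7a1, Slc7a6, Slc38a2 and Slc43a1, and in 10.16% of all promoters searched. In Slc43a1 it did not overlap the E-box, lying 16 to 8 bases before the start. These matches describe letters in a window, and factor binding was not measured.

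Compared with normal B220+ cells, Slc7a5, Slc3a2, Slc43a1 and Slc38a5 rose in vector lymphomas, and these 4 with Slc7a1, Slc1a5 and Slc7a6 rose in Myc lymphomas. In Myc against vector lymphomas, Slc7a5, Slc7a6, Slc38a5 and Slc43a1 rose, while Slc3a2 and Slc38a2 fell. A gene was called where edgeR's quasi-likelihood test gave an adjusted p under 0.05 over all 17824 genes. Between the lymphoma groups 6 of 10 carriers were called in Myc against vector, 4 higher and 2 lower, where 48.6% of all genes were called (26.6% higher, 21.9% lower). The median log2 fold change was 0.55 over the carriers and 0.09 over all genes. In vector lymphomas against normal cells 4 of 10 rose and 0 fell, where 7.46% of all genes rose and 3.36% fell, and the medians were 0.51 and -0.03. None of the 6 others had a lower level at an unadjusted p under 0.05 in edgeR, and DESeq2 also called 0 lower. In Myc lymphomas against normal cells 7 of 10 rose and 0 fell, where 21.5% of all genes rose and 17.9% fell, and the medians were 1.02 and 0.08. There, Slc38a2 was lower at an unadjusted p under 0.05, and DESeq2 called 0 carriers lower. At an unadjusted p under 0.05 the carriers numbered 7 in Myc against vector lymphomas (55.2% of all genes), 5 in vector lymphomas against normal (24.4%) and 9 in Myc lymphomas against normal (49%). Groups that did not overlap at all were found for 0 carriers between the lymphoma groups, where 5.12% of all genes lay wholly higher and 6.38% wholly lower in Myc lymphomas. Vector lymphomas lay wholly above normal samples for 3 carriers (7.33% of all genes) and wholly below for 1 (5.91%). Myc lymphomas lay wholly above normal samples for 4 carriers (13.1% of all genes) and wholly below for 0 (14.3%). The comparisons share samples, so their counts are not independent of each other. In RNA from sorted cells, fewer cells of a type and less RNA per cell cannot be told apart.

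**Figure D1:**
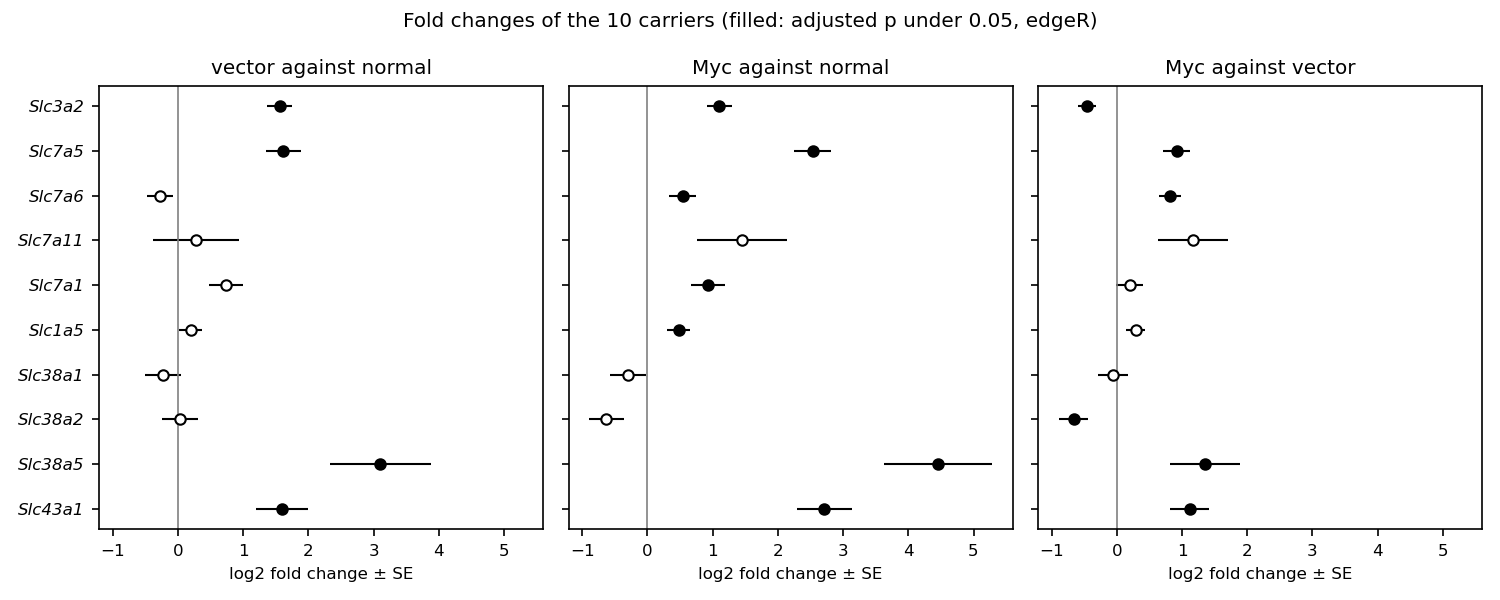
The log2 fold change of each carrier is plotted with its standard error in the 3 comparisons, filled where edgeR's adjusted p was under 0.05. Slc38a5 had the highest estimates against normal cells (3.10 and 4.46), and Slc3a2 and Slc38a2 are the filled points below 0 in Myc against vector lymphomas.

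**Figure D2:**
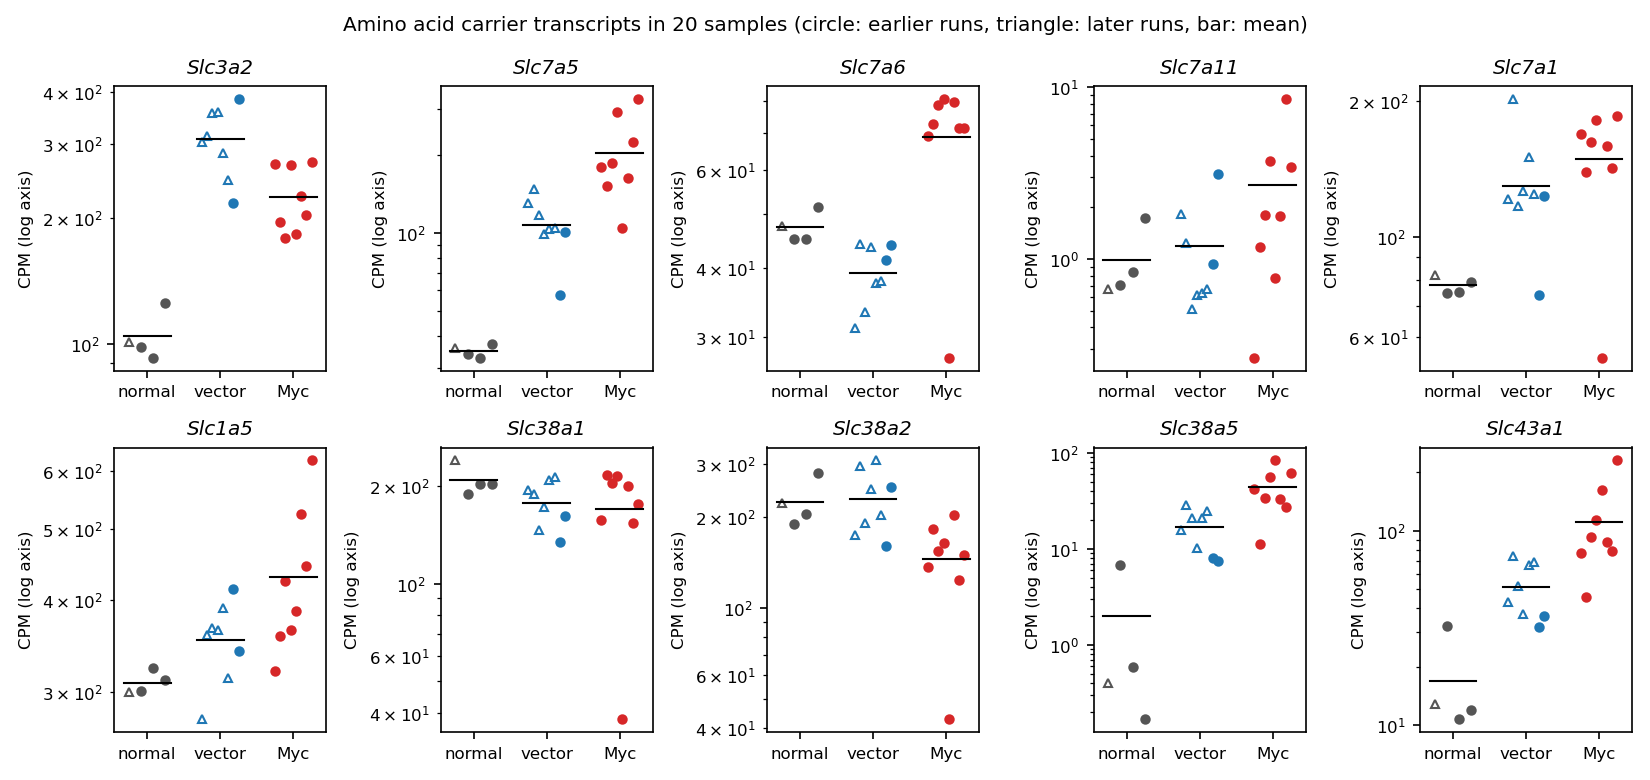
Each panel shows the CPM of 1 carrier on a log axis in the 4 normal samples, 8 vector lymphomas and 8 Myc lymphomas, with circles for earlier runs, triangles for later runs and bars for group means. Myc lymphoma 5 is the low point for Slc7a6, Slc7a1, Slc38a1 and Slc38a2, and normal sample 2 is the high normal point for Slc38a5 and Slc43a1.

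The heavy chain Slc3a2 was highest in vector lymphomas. It was measured at 101, 98.3, 92.4 and 125 CPM in the 4 normal samples. Vector lymphomas ranged from 217 to 384 CPM (median 309), and Myc lymphomas from 179 to 272 CPM (median 214). Both lymphoma groups lay wholly above the normal samples, and they overlapped each other. The log2 fold change in vector lymphomas against normal was 1.56 ± 0.19 (SE, adjusted p = 4.29e-05), a 2.95-fold rise. In Myc lymphomas against normal the log2 fold change was 1.10 ± 0.19 (adjusted p = 0.000156). Between the lymphoma groups Slc3a2 was lower with Myc, with a log2 fold change of -0.46 ± 0.14 (adjusted p = 0.0133). The fall was -0.41 within the earlier runs (adjusted p = 0.416) and -0.45 with run as a term (adjusted p = 0.129), past the threshold in neither. The rise in vector lymphomas was 1.53 within the earlier runs (adjusted p = 0.0482), where 0.665% of all genes were called.

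Slc7a5, the LAT1 light chain that carries leucine and other large neutral amino acids, was lowest in normal cells and highest in Myc lymphomas. Its levels were 35.9, 34.2, 32.9 and 37.2 CPM in the normal samples. Vector lymphomas ranged from 57.6 to 147 CPM (median 104), and Myc lymphomas from 104 to 328 CPM (median 183). No lymphoma overlapped the normal samples, while the lymphoma groups overlapped at the low end of the Myc group, which was Myc lymphoma 5. The log2 fold change was 1.61 ± 0.27 in vector lymphomas against normal (adjusted p = 0.000649) and 2.54 ± 0.29 in Myc lymphomas against normal (adjusted p = 2.68e-06). Between Myc and vector lymphomas it was 0.92 ± 0.21 (adjusted p = 0.00114), a 1.89-fold rise. With run as a term this rise was 1.23 (adjusted p = 0.00731), and within the earlier runs it was 1.37, where only 2 vector lymphomas remained and the adjusted p was 0.0593. The same earlier-run fit called 7.37% of all genes in that comparison. Against normal, the rise in vector lymphomas was 1.21 within the earlier runs (adjusted p = 0.278) and 1.40 with run as a term (adjusted p = 0.00597).

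Slc7a6, the y+LAT2 light chain that exchanges cationic for neutral amino acids, followed a different order. It was measured at 47.5, 45.1, 45.1 and 51.6 CPM in the normal samples. Vector lymphomas ranged from 31.2 to 44.1 CPM (median 39.6), and Myc lymphomas from 27.5 to 80.7 CPM (median 72.1). All 8 vector lymphomas lay below all 4 normal samples, yet the log2 fold change of -0.28 ± 0.20 was not called (adjusted p = 0.42). All Myc lymphomas but number 5 lay above both other groups, the next lowest at 69.1 CPM. Slc7a6 in Myc against vector lymphomas rose by 0.82 ± 0.16 on the log2 scale (adjusted p = 0.000447). Without Myc lymphoma 5 that rise was 0.94 (adjusted p = 1.36e-07), and with run as a term it was 0.74 (adjusted p = 0.0326). Within the earlier runs it was 0.71 (adjusted p = 0.222). The rise against normal, 0.54 ± 0.20 (adjusted p = 0.0398), missed the threshold in 13 planned settings and 2 added ones, among them the fit without low-count filter (adjusted p = 0.0752) and the fit of the earlier runs (adjusted p = 0.148).

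Slc7a11, the xCT light chain that imports cystine in exchange for glutamate, was the least abundant carrier. Its normal levels were 0.666, 0.707, 0.845 and 1.73 CPM. Vector lymphomas ranged from 0.515 to 3.11 CPM (median 0.804), and Myc lymphomas from 0.266 to 8.53 CPM (median 1.8). The Myc group alone covered a 32.1-fold range, and it held both the lowest and the highest of the 20 values. The log2 fold change in Myc against vector lymphomas was 1.17 ± 0.54 and was not called (adjusted p = 0.0756). It passed the threshold when vector lymphoma 8, Myc lymphoma 1 or Myc lymphoma 5 was left out, with adjusted p = 0.0217, 0.0291 and 0.0473. The lowest count behind these values was 10 reads, in Myc lymphoma 1.

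The balance of light to heavy chain transcripts was taken per kilobase of merged exons, so that genes of unequal length can be compared. The ratio of Slc7a5 to Slc3a2 was 0.323 ± 0.0263 (SD, n = 4) in normal cells, and the samples ranged from 0.284 to 0.339. It was 0.335 ± 0.0771 (SD, n = 8) in vector lymphomas, with a range of 0.251 to 0.445 that spanned the normal values. In Myc lymphomas it was 0.853 ± 0.227 (SD, n = 8), and the lowest of them, number 5 at 0.539, lay above every sample of the other groups. The ratio of Slc7a6 to Slc3a2 went from 0.353 ± 0.0244 (SD, n = 4) in normal cells to 0.101 ± 0.0238 (SD, n = 8) in vector lymphomas. It was 0.24 ± 0.0681 (SD, n = 8) in Myc lymphomas, which overlapped both other groups. The 3 light chains among the carriers described here, summed, were also set over Slc3a2. This gave 0.678 ± 0.0494 (SD, n = 4) in normal cells and 0.437 ± 0.0787 (SD, n = 8) in vector lymphomas, which did not overlap. In Myc lymphomas it gave 1.1 ± 0.264 (SD, n = 8). Other light chains of Slc3a2 were not part of this sum. These ratios were formed after the separate fold changes were known and were given no test. Across the 8 samples of a group, Slc7a5 and Slc3a2 were not related past the threshold, with Pearson r = 0.56 in vector lymphomas and r = 0.69 in Myc lymphomas (exact permutation, adjusted p = 0.4422 and 0.3368 over 26 relations). Spearman's rho was 0.0714 and 0.5714, with adjusted p = 0.9723 and 0.9298 by the same exact permutation, and without the 2 samples farthest from the median of Slc3a2, r was -0.39 and 0.70.

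**Figure D3:**
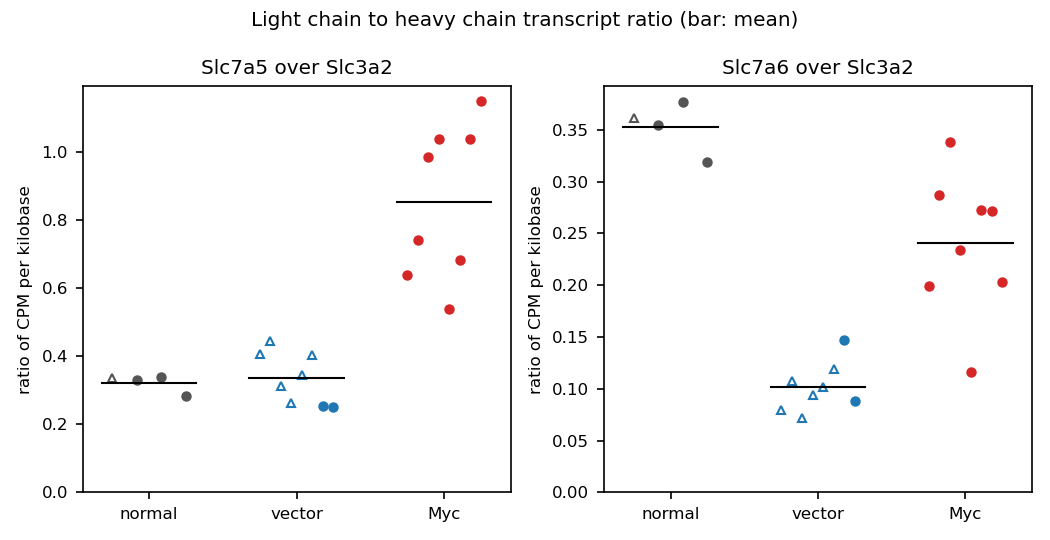
The ratio of light chain to Slc3a2 CPM per kilobase is plotted for each of the 20 samples, for Slc7a5 on the left and Slc7a6 on the right, with bars for group means. All 8 Myc lymphomas lie between 0.539 and 1.15 for Slc7a5, above the other 12 samples, and vector lymphomas lie lowest for Slc7a6.

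Slc7a1, the CAT1 carrier of arginine and lysine that works without a heavy chain, was measured at 82.2, 74.8, 75.3 and 79.5 CPM in the normal samples. Vector lymphomas ranged from 74.1 to 202 CPM (median 124), and Myc lymphomas from 53.8 to 185 CPM (median 160). In each lymphoma group 7 of 8 samples lay above the normal range, the exceptions being vector lymphoma 7 and Myc lymphoma 5. The rise in Myc lymphomas against normal was 0.93 ± 0.26 on the log2 scale (adjusted p = 0.00807). The difference of vector lymphomas from normal, 0.73 ± 0.26, was not called (adjusted p = 0.0728). It was called by DESeq2 (adjusted p = 0.0311), without vector lymphoma 7 (adjusted p = 0.0332) and without Myc lymphoma 5 (adjusted p = 0.00653). Myc and vector lymphomas differed by 0.20 ± 0.20 on the log2 scale (adjusted p = 0.436).

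Slc1a5, the ASCT2 exchanger of glutamine and other neutral amino acids, was abundant in all groups. Its normal levels were 300, 301, 323 and 311 CPM. Vector lymphomas ranged from 275 to 414 CPM (median 361), and Myc lymphomas from 320 to 621 CPM (median 406). The groups overlapped, and the rise in Myc lymphomas against normal was 0.48 ± 0.18 on the log2 scale (adjusted p = 0.038), a 1.4-fold difference. That call was lost within the earlier runs (adjusted p = 0.148), with run as a term (adjusted p = 0.0549) and without any 1 of the 4 normal samples (adjusted p = 0.0594 to 0.0753), and also without Myc lymphoma 6, 7 or 8. Myc against vector lymphomas gave 0.29 ± 0.14 (adjusted p = 0.102), which reached 0.044 with upper-quartile scaling.

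Slc38a1 and Slc38a2, sodium-coupled carriers of small neutral amino acids such as alanine and glutamine, did not rise in any comparison. Slc38a1 was measured at 239, 188, 203 and 202 CPM in normal samples. It ranged from 134 to 213 CPM in vector lymphomas (median 180) and from 38.2 to 215 CPM in Myc lymphomas (median 188). Its fold changes were not called, and that of Myc against vector lymphomas turned from -0.06 to 0.09 without Myc lymphoma 5. Slc38a2 ranged from 190 to 280 CPM in normal samples (median 214), from 160 to 308 CPM in vector lymphomas (median 225) and from 42.8 to 204 CPM in Myc lymphomas (median 153). Its fall in Myc against vector lymphomas had a log2 fold change of -0.66 ± 0.23 (adjusted p = 0.02), and of -0.52 without Myc lymphoma 5 (adjusted p = 0.008). The call was lost within the earlier runs (-0.49, adjusted p = 0.502) and with run as a term (-0.56, adjusted p = 0.23). Against normal, the change of -0.63 ± 0.27 in Myc lymphomas was not called (adjusted p = 0.066), and it was called without Myc lymphoma 5 (-0.47, adjusted p = 0.041) or without Myc lymphoma 6 (-0.73, adjusted p = 0.0374).

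Within the 8 vector lymphomas, Slc38a2 moved with the Myc transcript. The 4 lymphomas with the least Myc (48.3 to 73 CPM) had 160 to 203 CPM of Slc38a2, and the 4 with the most (128 to 226 CPM) had 247 to 308 CPM. Pearson r of the log2 values was 0.97 (exact permutation, p = 0.0008, adjusted p = 0.0213 over 26 relations). Spearman's rho was 0.90 (exact permutation, p = 0.0046, adjusted p = 0.1187), past the threshold before adjustment only. Without the 2 samples farthest from the median of Myc, r was 0.93, and in the 6 vector lymphomas of the later runs it was 0.95. In neither set of 6 was the relation called (exact permutation, adjusted p = 0.49 and 0.337), nor when vector lymphoma 2, 4, 5, 7 or 8 alone was left out (adjusted p = 0.0567 to 0.0929). Since the samples fell into 2 sets of 4 along Myc, no set was large enough for a value of its own. In Myc lymphomas the same relation had r = 0.82 and rho = 0.31 (exact permutation, adjusted p = 0.3368 and 0.9298). It rested on Myc lymphoma 5 and 1 other sample: without the 2 farthest samples, r was -0.58. The relation in vector lymphomas was the only one called among the 26, of which 20 joined a carrier to Myc within a lymphoma group. At unadjusted p under 0.05 there were 3 by Pearson and 2 by Spearman, and 0 were called by Spearman after adjustment.

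**Figure D4:**
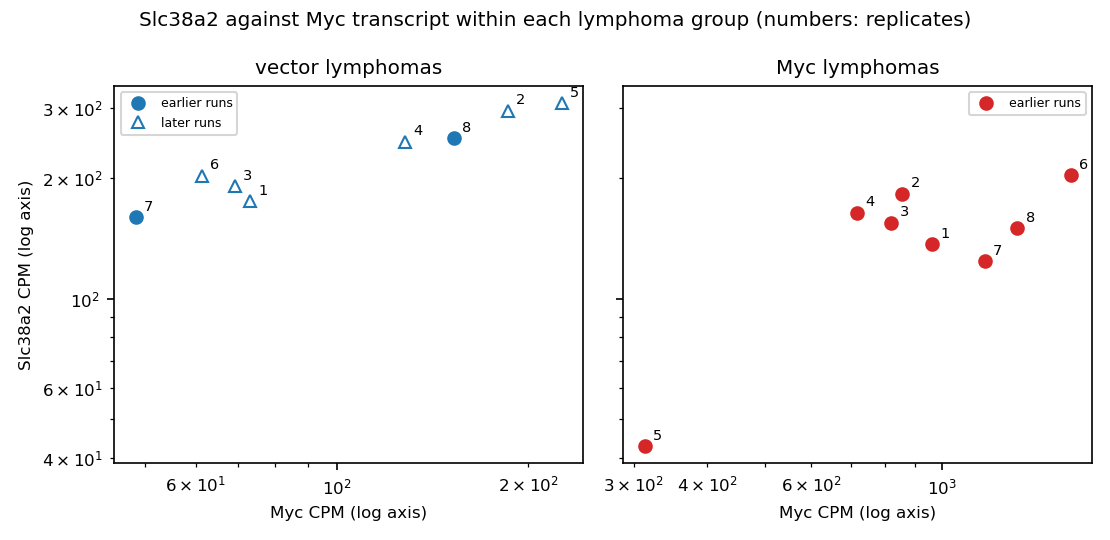
Slc38a2 CPM is plotted against Myc CPM on log axes for the 8 vector lymphomas on the left and the 8 Myc lymphomas on the right, numbered by replicate. The vector lymphomas rise together from 160 to 308 CPM, while in the Myc lymphomas number 5 lies alone at 42.8 CPM.

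Slc38a5 (SNAT5), which carries glutamine, asparagine and histidine, had the widest differences between groups. Its normal levels were 0.403, 6.77, 0.588 and 0.167 CPM, so that normal sample 2 was far above the other 3. Vector lymphomas had 15.7, 29, 20.8, 10.3, 20.8, 24.7, 7.99 and 7.51 CPM, and Myc lymphomas had 42.4, 11.3, 33.8, 56.5, 83.8, 33.3, 27.1 and 62 CPM. All lymphomas lay above all normal samples, and the lymphoma groups overlapped. The log2 fold change was 3.10 ± 0.77 in vector lymphomas against normal (adjusted p = 0.012) and 4.46 ± 0.83 in Myc lymphomas against normal (adjusted p = 0.00038). In Myc against vector lymphomas it was 1.36 ± 0.54 (adjusted p = 0.0417). The call between lymphomas was lost when any of 11 single lymphomas was left out (adjusted p = 0.0509 to 0.0803), without the filter on low counts (1.29, adjusted p = 0.0548) and within the earlier runs (2.51, adjusted p = 0.162). It was also lost with run as a term (1.75, adjusted p = 0.279). The call in vector lymphomas against normal was lost within the earlier runs (1.64, adjusted p = 0.715) and with run as a term (2.74, adjusted p = 0.0993).

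Slc43a1 (LAT3), which carries branched-chain amino acids without a heavy chain and is known to supply leucine to maturing red cells, showed the same ranking of groups. Its normal levels were 12.8, 32.4, 10.7 and 11.9 CPM, again with normal sample 2 on top. Vector lymphomas had 43, 74.1, 52.2, 37.3, 66.7, 69.1, 31.9 and 36.4 CPM, and Myc lymphomas had 77.2, 45.6, 93.1, 113, 163, 88, 78.6 and 230 CPM. Myc lymphomas lay wholly above normal samples, while vector lymphoma 7 lay just under normal sample 2. The log2 fold change was 1.60 ± 0.40 in vector lymphomas against normal (adjusted p = 0.0116) and 2.71 ± 0.42 in Myc lymphomas against normal (adjusted p = 6.81e-05). Between Myc and vector lymphomas it was 1.11 ± 0.30 (adjusted p = 0.00475), a 2.17-fold rise. With run as a term the rise between lymphomas was 1.40 (adjusted p = 0.0498), and within the earlier runs it was 1.71 (adjusted p = 0.0867). The call in vector lymphomas against normal was lost in both, at 1.37 with run as a term (adjusted p = 0.0856) and 0.91 within the earlier runs (adjusted p = 0.749).

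Slc38a5 and Slc43a1 moved together and moved with erythroid transcripts. Over the 20 samples their log2 CPM had r = 0.95 with each other, and 0.85 after each group's mean was removed. The 12 erythroid markers summed to 392, 3430, 334 and 298 CPM in normal samples 1 to 4, from 3640 to 19000 CPM in vector lymphomas and from 6190 to 77600 CPM in Myc lymphomas. None of the markers was at 0 in any group. Of the 12 markers, 11 rose in vector lymphomas and 12 in Myc lymphomas against normal, where 7.46% and 21.5% of all genes rose. In Myc against vector lymphomas 4 of the 12 rose, where 26.6% of all genes did. They were Tfrc, Gata1, Klf1 and Rhag, the transferrin receptor, 2 erythroid transcription factors and a red cell membrane protein. Normal sample 2 was the highest normal sample in the markers and in both carriers. Vector lymphomas 7 and 8 had the lowest marker sums of their group and the lowest levels of both carriers. After group means were removed, r with the marker sum was 0.82 for Slc38a5 and 0.86 for Slc43a1, and between -0.50 (Slc7a6) and 0.20 (Slc7a5) for the other carriers. Within the 8 vector lymphomas, however, Slc7a5 (0.79), Slc38a1 (0.72) and Slc7a1 (0.72) had values near those of Slc38a5 (0.86) and Slc43a1 (0.80). Within the 8 Myc lymphomas these were 0.004, -0.68 and -0.57, beside 0.68 and 0.82. There Slc38a5 and Slc43a1 also had 0.60 and 0.58 with macrophage and monocyte markers. With plasmacytoid dendritic cell markers they had 0.60 and 0.68. Myc lymphoma 5 had the highest sum of its group in both of these lists. Within the 8 vector lymphomas the values were -0.62 and -0.54 with the former list, and 0.19 and 0.015 with the latter. These correlations are descriptions over 20 samples that share libraries and scaling.

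With the log2 marker sum as a term in the fit, a setting added after these values were seen, the same 6 carriers were called in Myc against vector lymphomas, where 43.9% of all genes were. There Slc38a5 rose by 0.91 (adjusted p = 0.0303) and Slc43a1 by 0.73 (adjusted p = 0.00232), smaller than without the term, and Slc7a5 rose by 0.86 (adjusted p = 0.00283). In vector lymphomas against normal only Slc3a2 was called (1.65, adjusted p = 0.00892), where 2.12% of all genes were, and Slc38a5 had 0.84 (adjusted p = 0.686) and Slc43a1 -0.18 (adjusted p = 0.912). In Myc lymphomas against normal only Slc7a5 was called (2.02, adjusted p = 0.0375), where 3.43% of all genes were. Every lymphoma lay above every normal sample in the marker sum, so in these comparisons marker level and group cannot be told apart. When the term was used within the earlier runs, 0 carriers were called in any comparison, and 2.98% of all genes were called in Myc against vector lymphomas, 0.411% in vector lymphomas against normal and 0.313% in Myc lymphomas against normal.

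**Figure D5:**
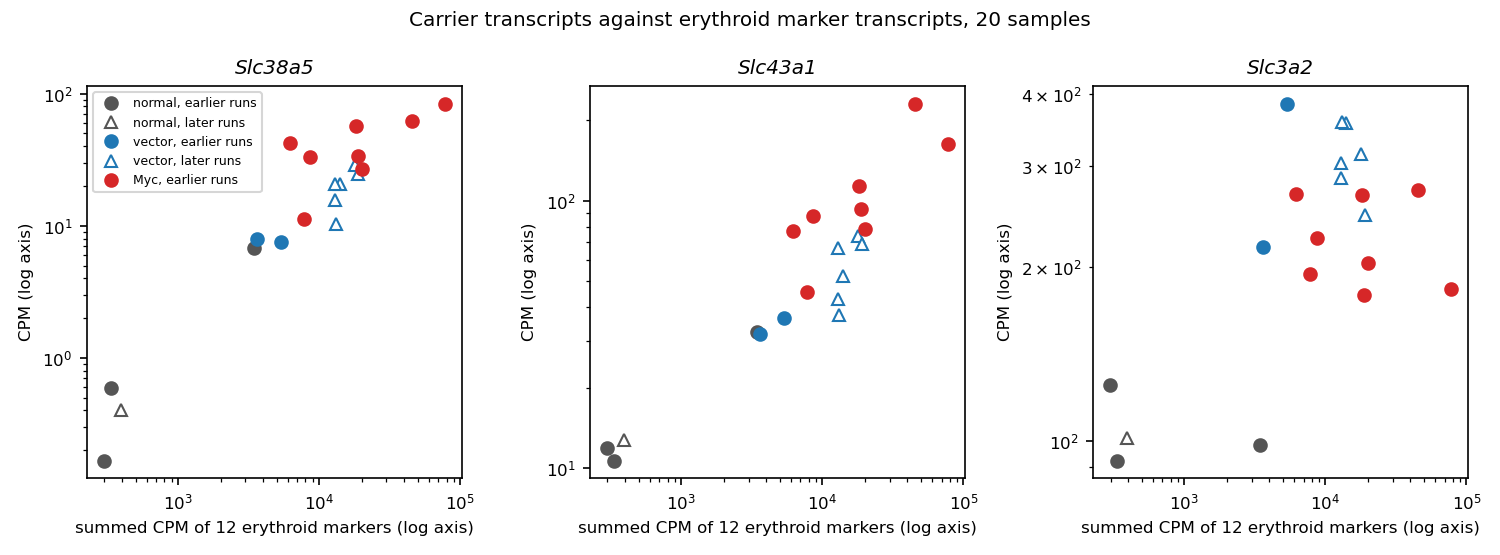
The CPM of Slc38a5, Slc43a1 and Slc3a2 is plotted against the summed CPM of 12 erythroid markers in the 20 samples, all on log axes, with circles for earlier and triangles for later runs. Slc38a5 and Slc43a1 rise with the markers across and within groups, with normal sample 2 beside vector lymphoma 7, while Slc3a2 separates normal samples from lymphomas with no such slope among the lymphomas.

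Other markers also moved with the groups, and their part in the carriers' levels was not tested. Plasma cell markers summed to 614 to 957 CPM in normal samples, 4770 to 8430 in vector lymphomas and 919 to 4470 in Myc lymphomas, so that they, like Slc3a2, were highest in vector lymphomas. Within groups Slc3a2 had r = 0.21 with the plasma cell sum after group means were removed. Its values with the T cell and NK cell sums were -0.49 and -0.46. Of the 8 plasma cell markers, 6 rose in vector lymphomas against normal (7.46% of all genes), and 4 fell in Myc against vector lymphomas (21.9%). Of the 9 NK cell markers, 8 rose in Myc against vector lymphomas, where 26.6% of all genes rose. Their sums were 178 to 276 CPM in normal samples, 50.6 to 93.1 in vector and 176 to 659 in Myc lymphomas. Against normal 7 fell in vector lymphomas (3.36% of all genes), and 4 rose and 1 fell in Myc lymphomas (21.5% and 17.9%). Within groups Slc7a5 had r = -0.71 with the NK cell sum. Other pairs had values near this size, such as Slc7a1 with B cell markers (-0.67) and Slc38a1 with macrophage and monocyte markers (-0.66). Neutrophil markers summed to 87.5 to 917 CPM in normal samples, 57 to 5900 in vector lymphomas and 1660 to 16600 in Myc lymphomas, and macrophage and monocyte markers to 638 to 3100 CPM over all samples. T cell markers summed to 648 to 1540 CPM and plasmacytoid dendritic cell markers to 440 to 2730 CPM, and no marker of any list was at 0 in a whole group.

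Per kilobase, Slc1a5 and Slc3a2 led the 10 carriers in every group. In normal cells the order was Slc1a5 (74 CPM per kilobase, 43.1% of the summed level), Slc3a2 (29.5) and Slc38a2 (25.4), the last pair overlapping between samples. In vector lymphomas Slc3a2 (87.2) and Slc1a5 (84.6) overlapped at the top, followed without overlap by Slc7a5 (28.9). In Myc lymphomas the order was Slc1a5 (103), Slc3a2 (63.5) and Slc7a5 (54.8), each overlapping the next. Slc7a5 thus ranked 6 of 10 in normal cells, where Slc7a6 (10.4) overlapped it, and 3 of 10 in both lymphoma groups. The next carrier overlapped Slc7a5 there too, Slc38a2 (25.9) in vector and Slc43a1 (19.5) in Myc lymphomas. Slc38a5 ranked 9 of 10 in normal and vector samples (0.884 and 7.63) and reached 19.5 in Myc lymphomas, level with Slc43a1 (19.5). Slc7a11 was last in each group, at 0.071, 0.0859 and 0.193 CPM per kilobase, and overlapped Slc38a5 in normal cells only. By mean CPM without division by length, Slc1a5 and Slc3a2 also led both lymphoma groups. In normal cells, however, Slc38a2 (224 CPM) and Slc38a1 (208 CPM) then lay above Slc3a2 (104 CPM).

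The genes most like each carrier were taken from 10693 genes with a mean of at least 5 CPM, by Pearson r of log2 CPM over the 20 samples. These values describe likeness across groups and carry no test. Those nearest Slc38a5 were Cldn13, Car2 and Phyhip (r = 0.99, 0.99 and 0.99), and those nearest Slc43a1 were Dhrs11, Tspan33 and Ptdss2 (r = 0.99, 0.98 and 0.98). Those nearest Slc7a5 were Nars, the cytosolic asparaginyl-tRNA synthetase, Map3k20 and Sqle, an enzyme of cholesterol synthesis (each r = 0.93). Slc7a6 was nearest to Xpot, the tRNA export receptor (0.94), and Slc3a2 to Evc, Spon1 and Nucb1 (0.94, 0.91 and 0.89). Slc38a1 was nearest to Nup153, Xrn1 and Dcaf1 (0.99, 0.98 and 0.98) and Slc38a2 to Rel, Spty2d1 and Arid5b (0.97, 0.96 and 0.96). Slc7a1 was nearest to Kif14, Uhrf1bp1 and Nploc4 (0.95, 0.95 and 0.94), Slc1a5 to Pkn3, Eepd1 and Man1c1 (0.84, 0.81 and 0.79), and Slc7a11 to Myadm, Oasl2 and Hk3 (0.80, 0.79 and 0.79). With group means removed the values for Slc3a2 went down to 0.63, 0.54 and 0.42, while those for Slc38a1 were 0.99, 0.98 and 0.98. Among the carriers themselves, the highest values with group means removed were 0.89 for Slc7a6 with Slc38a2 and 0.88 for Slc38a1 with Slc38a2, where Myc lymphoma 5 is the lowest sample of all 3.

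Of 20 other plasma membrane amino acid carriers, 14 were tested. In Myc against vector lymphomas 2 rose and 3 fell (median log2 fold change -0.20), against normal 2 rose and 1 fell in vector lymphomas, and 3 rose and 3 fell in Myc lymphomas. The glutamate carriers Slc1a3 and Slc1a2 fell by 1.25 and 1.63 on the log2 scale between the lymphoma groups, from low levels of 2.42 and 0.61 mean CPM. The cationic carrier Slc7a2 rose by 1.69, from a mean of 0.327 to 1.07 CPM. Slc7a10, a light chain for small neutral amino acids, had no count in the 8 Myc lymphomas and 0.484 to 1.76 CPM in vector lymphomas, at least 8.14-fold lower when set against 3 counts in the smallest Myc library on the same scale. Named after their values were seen, Slc6a9, the glycine carrier, went from a mean of 4 CPM in normal cells to 27.1 in vector and 66.1 in Myc lymphomas (log2 fold change 1.28 between the lymphoma groups, adjusted p = 0.0272). Slc1a4, a carrier of serine and alanine, went from 1.71 CPM to 11 and 11.7 CPM (2.69 in vector lymphomas against normal, adjusted p = 0.000297). Of 8 lysosomal amino acid carriers 7 were tested: Slc15a4, a histidine and peptide carrier, fell by 1.28 and Slc38a9, an arginine-sensing carrier, rose by 0.65 in Myc against vector lymphomas (adjusted p = 3.45e-05 and 0.0258).

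The 28 genes by which amino acids are sensed for mTORC1 were mixed. In Myc against vector lymphomas 7 rose and 4 fell, with a median of 0.01, and against normal 1 rose and 0 fell in vector lymphomas, and 3 rose and 4 fell in Myc lymphomas. The leucine sensor family member Sesn3 went from 70.3 ± 16.9 CPM (SD, n = 8) in vector to 21.8 ± 9.08 CPM (SD, n = 8) in Myc lymphomas, and Depdc5, a subunit of the GATOR1 inhibitor, from 66.9 to 32.4 mean CPM. The log2 fold changes were -1.69 and -1.04 (adjusted p = 1.32e-05 and 5.43e-05). Flcn, a regulator of the Rag GTPases, also fell (-0.73), and Seh1l, a GATOR2 subunit, rose (0.47).

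Of 19 amino acid response genes tested against normal, 10 rose, 1 fell and 8 were not called in vector lymphomas, and 11 rose, 0 fell and 8 were not called in Myc lymphomas. The one that fell was Ddit4 (-1.69), an inhibitor of mTORC1, named after its value was seen. Between the lymphoma groups 7 rose and 4 fell. Atf4, the transcription factor of this response, fell from 667 ± 142 CPM (SD, n = 8) in vector to 319 ± 72.6 CPM (SD, n = 8) in Myc lymphomas (adjusted p = 5.61e-05), while Asns, asparagine synthetase, rose from 33 ± 8.1 to 105 ± 38.8 CPM (adjusted p = 2.01e-05). Psat1, an enzyme of serine synthesis, and Mthfd2, a mitochondrial folate enzyme, rose by 1.40 and 0.95 on the log2 scale. Between the lymphoma groups Slc3a2 fell, as Atf4 did, and Slc7a5 rose, as Asns did. Relations of the carriers to these genes were not tested. The fall of Slc3a2 was not called with run as a term (edgeR, adjusted p = 0.129).

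Another list held 16 enzymes that act on the carried amino acids or on products made from them, all tested. In Myc against vector lymphomas 8 rose, 0 fell and 8 were not called (median log2 fold change 0.65). Of all genes, 26.6% rose and 21.9% fell there. In Myc lymphomas against normal 11 rose and 0 fell, where 21.5% of all genes rose and 17.9% fell. In vector lymphomas against normal 3 rose and 0 fell, where 7.46% of all genes rose and 3.36% fell. Bcat1 and Bcat2, which transaminate branched-chain amino acids, rose by 1.15 and 0.70 between the lymphoma groups (adjusted p = 0.000148 and 0.00133). Gclm and Gss, enzymes of glutathione synthesis, rose by 1.02 and 1.05 (adjusted p = 0.000604 and 0.00013). The lists were drawn up with earlier results of these data known, and their counts stand beside the same backgrounds of 48.6, 10.8 and 39.4% of all genes called.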

How the data were processed

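The deposited values are raw counts per Ensembl gene, 1 column per sample (20 in all); no scaling by the authors is recorded. Ion Proton instruments sequenced polyadenylated RNA, per the labels' protocols. Named in the submitters' processing notes are HTSeq, BWA 0.7.5a, Picard 1.119 and, as builds, NCBIM37 and mm9. The strand setting was not given in these sources; no carrier shares exon bases with another annotated gene. Names and exon lengths came from GENCODE vM21 (32897 of 37620 identifiers matched). The 5 summary lines for unassigned reads, 43.04 to 62.92% of reads, were left out.

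Counts were filtered by group (17824 genes kept), TMM-scaled and tested with edgeR 4.0.16 (quasi-likelihood, two-sided, Benjamini-Hochberg) in 1 fit of 3 groups; log2 CPM used a prior count of 2. In simulated data 74.8% of 4-fold changes were recovered for Myc against vector, 68.8% for vector against normal and 70.3% for Myc against normal, and 29.1, 13.3 and 21.1% of 2-fold changes. Alternatives were DESeq2 1.42.0, 2 other scalings, no filter, pairwise fits, run terms and leaving out each sample. The members, lists and tests were chosen with earlier results of these data known. Named were all members, up to 4 called genes of smallest p per other list, and the 3 genes most like each member; some genes that this rule names are not reported here.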

Additional observations from a re-analysis of the deposited data

Results flagged for a closer look

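In 7 of 30 sets of values (10 carriers in 3 groups), 1 sample lay further from its group than the 95% limit of Dixon's gap test; chance gives about 1 in 20 sets. Myc lymphoma 5 was the low sample for Slc7a6 (27.5 CPM), Slc7a1 (53.8 CPM) and Slc38a1 (38.2 CPM). The same lymphoma had the highest erythroid marker sum of all samples (77600 CPM) and the lowest Myc transcript of its group (313 CPM). Normal sample 2 was the high sample for Slc38a5 (6.77 CPM) and Slc43a1 (32.4 CPM), with an erythroid marker sum of 3430 CPM beside 298 to 392 CPM in the other normal samples. For Slc7a11 the high samples were normal sample 4 (1.73 CPM) and Myc lymphoma 7 (8.53 CPM). Without Myc lymphoma 5 and normal sample 2, a setting added after these values were seen, Slc38a5 had a log2 fold change of 5.47 in vector lymphomas against normal (edgeR, adjusted p = 3.74e-05). Because normal sample 2 was flagged for its high Slc38a5, leaving it out was bound to enlarge this rise, so the value is no separate evidence of it.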

How the results depend on the processing

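Of 810 planned refits of single carriers, 739 kept direction and side of the threshold, 50 fell below it, 11 passed it and 10 turned direction. Among the 810 are fits that left out a sample of the group not compared. Such a sample acts only through filter, scaling and shared spread, so these fits could move an estimate little. No paired analysis was possible because replicate numbers only follow accession order. Causes were not tested. Within the earlier runs 0 carriers rose and 0 fell in Myc against vector lymphomas (7.37% of all genes called). In vector against normal 1 rose there (0.665% of all genes called). With run as a term Slc7a5, Slc7a6 and Slc43a1 still rose between lymphomas (edgeR, adjusted p = 0.00731, 0.0326 and 0.0498) and 0 fell. That fit called 19% of all genes between lymphomas. In vector against normal it called 6.87% of all genes, and 2 carriers rose. With the erythroid term 1 rose in each comparison with normal, and 0 rose or fell in any when that term was used within the earlier runs. Leaving out single samples gave 0 to 1 carriers lower in Myc against normal, 1 without Myc lymphoma 5 and normal sample 2, and 0 to 1 relations called (0 without vector lymphoma 2, 4, 5, 7 or 8). No relation (0) was called without the 2 farthest samples or in the later-run vector lymphomas. Estimates that turned direction were all uncalled under the setting. For Slc38a1 in Myc against vector they were 0.22 within the earlier runs, 0.19 with run as a term, 0.09 without Myc lymphoma 5 and normal sample 2, 0.56 with both earlier runs and the erythroid term, and -0.147 to 0.091 leaving out samples. In vector against normal, Slc7a11 ranged from -0.11 to 0.71 leaving out samples; Slc38a2 was -0.024 with upper-quartile scaling, -0.11 within the earlier runs, -0.038 with run as a term, -0.044 to 0.187 leaving out samples and -0.02 without Myc lymphoma 5 and normal sample 2. With the erythroid term, over all and over earlier runs, vector against normal gave 0.21 and 0.23 for Slc7a6, 0.25 and 0.084 for Slc38a1, and -0.18 and -0.073 for Slc43a1; Myc against normal gave 0.23 and 0.65 for Slc38a1, and 0.074 and 0.40 for Slc38a2.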
